A study of Danio rerio with 18 samples.

Results

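The genes described here are 8 known transcriptional targets of the tumour suppressor p53, each read from the single row of the array annotated with that gene alone: mdm2, cdkn1a, ccng1, gadd45aa, sesn1, bbc3, baxa and phlda3. They were taken by name from 19247 genes, each read from a row annotated with 1 gene symbol, and all 8 were found. The levels below are those of the targets. Expression was measured on 18 single-channel arrays, 3 in each of 6 groups, with RNA of cells sorted from AB-strain zebrafish embryos at 3 days post fertilisation (dpf). All embryos carried the transgenes Runx1+23:GFP and kdrl:DsRed2. Pools of embryos were kept from 2 dpf to 3 dpf in 75 µM Lycorine, an alkaloid of amaryllis-family plants, dissolved in 1% DMSO, or in 1% DMSO alone, which both groups therefore shared. The pools were dissociated and sorted into kdrl+ cells, labelled endothelial, Runx+ cells, labelled haematopoietic stem and progenitor cells (HSPCs), and non-fluorescent negative cells, labelled as all cell types. The groups are Lycorine kdrl+, DMSO kdrl+, Lycorine Runx+, DMSO Runx+, Lycorine negative and DMSO negative. The sort follows the promoter or enhancer of each reporter, and each sample is a pool of embryos, so neither single cells nor single embryos can be told apart.

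p53 is a transcription factor that is kept at a low level in unstressed cells because Mdm2 binds it and marks it for destruction. Damage to DNA, disturbed ribosome assembly and other stresses release p53, which then raises the transcription of genes that halt the cell cycle, alter growth and metabolism, or start cell death. Because mdm2 is itself a target, the pathway limits itself. In zebrafish embryos, Mdm2 is known to be needed to keep p53 from killing cells, and the target set is used widely as a readout of p53 activity.

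The values are log2 intensities after normalisation, so a difference of 1 is a 2-fold change, and levels are compared only within a gene because each gene has its own probes. The spread between the 3 arrays of a group, as the root mean square SD over all genes, was 0.27 in Lycorine kdrl+, 0.33 in Lycorine Runx+ and 0.26 in Lycorine negative cells, against 0.50, 0.54 and 0.44 in the DMSO groups of the same sorts. The sort labels were compared with marker genes, scored as the mean deviation from each gene's mean over all arrays. The 10 endothelial markers scored 2.70 to 2.92 in Lycorine kdrl+ and 2.00 to 2.97 in DMSO kdrl+ arrays, while every Runx+ and negative array was below -0.82. The 9 HSPC markers did not set the Runx+ sort apart: they scored -0.59 to -0.23 in Lycorine Runx+ and -0.69 to 0.12 in DMSO Runx+ arrays, against 0.46 to 1.37 across the kdrl+ arrays and -0.74 to -0.39 across the negative arrays. The Runx+ cells are therefore called by their sort only. The markers of liver, pancreas and gut, of which 7 were measured, scored between -1.18 and -0.43 in all Lycorine arrays. They scored 2.57, 2.34 and 3.09 in the DMSO arrays numbered 2 of the kdrl+, Runx+ and negative sorts, 1.39 in DMSO Runx+ replicate 3, and between -0.60 and 0.21 in the other DMSO arrays.

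The first question was whether Lycorine moved the p53 targets in any of the sorted populations. Of the 8 genes, 0 passed the test in kdrl+ cells, 0 in Runx+ cells and 0 in negative cells, in a limma fit over all arrays with Benjamini-Hochberg adjustment over all genes and a threshold of 0.05. Over all genes, 0.052% passed in kdrl+ cells (10 genes), 0% in Runx+ cells and 0% in negative cells, so nearly every gene, like the members, did not pass. At an unadjusted p under 0.05 there was 1 member in each sort, sesn1 in kdrl+ cells and ccng1 in both others, beside 2192 of all genes in kdrl+, 2600 in Runx+ and 1302 in negative cells. The median Lycorine difference of the 8 members was 0.00 in kdrl+, -0.34 in Runx+ and -0.32 in negative cells, beside medians over all genes of -0.06, -0.04 and -0.08. These medians moved with single arrays. The kdrl+ median was 0.20 without DMSO kdrl+ replicate 3 and -0.14 without DMSO kdrl+ replicate 1. The Runx+ median was -0.05 without DMSO Runx+ replicate 3 and -0.56 without DMSO Runx+ replicate 1, and the negative median was -0.16 without Lycorine negative replicate 2. The samples are bulk RNA, so fewer cells with a transcript and less of it per cell cannot be told apart.

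**Figure D1:**
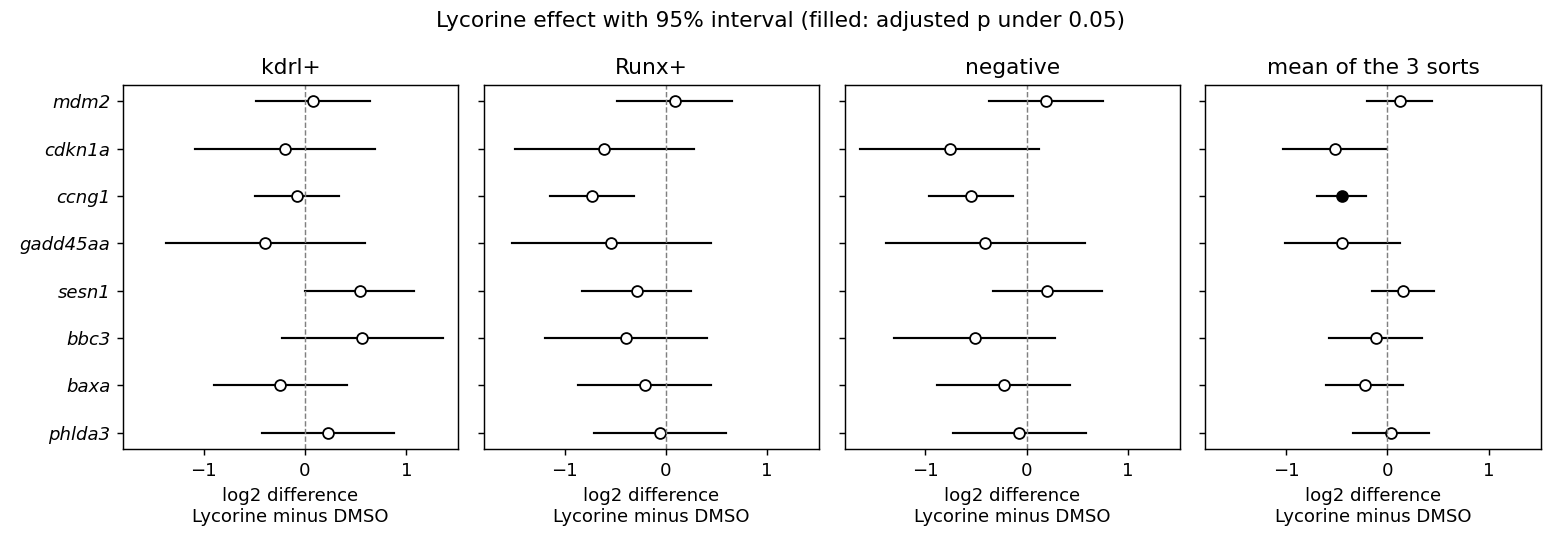
Difference between Lycorine and DMSO in log2 intensity (horizontal axis) for each p53 target (rows), in kdrl+, Runx+ and negative cells and averaged over the 3 sorts; points are limma estimates, bars are 95% intervals, and a filled point marks an adjusted p under 0.05. Only ccng1 in the averaged panel is filled, at -0.45, and the kdrl+ panel holds the highest estimates, those of sesn1 at 0.54 and bbc3 at 0.56.

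The negative feedback arm, mdm2, showed no difference that passed the test. mdm2 encodes the ubiquitin ligase that marks p53 for destruction. It measured 7.07, 6.89 and 6.75 in Lycorine kdrl+ cells, against 6.40, 6.46 and 7.62 in DMSO kdrl+ cells. In these cells 2 DMSO arrays lay below every Lycorine array and the DMSO array numbered 3 lay above them all. The values were 6.54, 6.83 and 6.52 in Lycorine Runx+ cells, against 6.46, 6.64 and 6.53 in DMSO Runx+ cells. They were 6.53, 6.62 and 6.90 in Lycorine negative cells, against 6.46, 6.23 and 6.78 in DMSO negative cells. Lycorine and DMSO arrays overlapped in all 3 sorts, and the differences were 0.08, 0.09 and 0.19 (SE 0.27 each) in kdrl+, Runx+ and negative cells. Averaged over the sorts, the mdm2 difference was 0.12 ± 0.15 (SE), with a 95% interval of -0.21 to 0.44. A second row on the array was annotated to both mdm2 and snrnp70 and was not used.

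Among the targets that act on the cell cycle, ccng1 was the member that came closest to a change. ccng1 encodes cyclin G1, an unusual cyclin that, in mammals, is among the earliest p53 targets known and works with a phosphatase on Mdm2. It measured 8.11, 8.16 and 8.15 in Lycorine kdrl+ cells, against 8.07, 7.92 and 8.67 in DMSO kdrl+ cells. It measured 7.92, 7.93 and 7.67 in Lycorine Runx+ cells, against 8.49, 8.45 and 8.78 in DMSO Runx+ cells. It measured 8.04, 7.91 and 7.89 in Lycorine negative cells, against 8.56, 8.54 and 8.40 in DMSO negative cells. All Lycorine arrays lay below all DMSO arrays in the Runx+ and negative sorts, whereas in the kdrl+ sort the Lycorine arrays lay within the DMSO range. The difference was -0.73 ± 0.20 (SE) in Runx+ cells with an adjusted p of 0.178 by limma, and -0.55 ± 0.20 in negative cells with an adjusted p of 0.641. In kdrl+ cells it was -0.08 ± 0.20. Over all genes, 8.62% were lower without overlap in Runx+ cells and 11.7% in negative cells, so a separation of 3 arrays from 3 was common.

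cdkn1a encodes p21, the inhibitor of cyclin-dependent kinases through which p53 halts the cell cycle. It measured 7.56, 6.99 and 7.26 in Lycorine kdrl+ cells, against 6.81, 7.63 and 7.96 in DMSO kdrl+ cells. It measured 7.59, 7.06 and 6.75 in Lycorine Runx+ cells, against 6.74, 8.57 and 7.92 in DMSO Runx+ cells. In negative cells the values were 7.47, 6.95 and 7.16 under Lycorine, against 7.29, 8.68 and 7.89 in DMSO. The groups overlapped in every sort, and the DMSO arrays numbered 2 of the Runx+ and negative sorts held the highest cdkn1a values of the series. Those arrays also held the highest scores of liver, pancreas and gut markers among the arrays of their sorts, and the part of those cells in the cdkn1a values was not tested. The differences were -0.20, -0.61 and -0.76 (SE 0.42 each) in kdrl+, Runx+ and negative cells. With the DMSO arrays numbered 2 left out of all sorts they were -0.11, -0.20 and -0.40 (SE 0.39 each).

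gadd45aa belongs to a family of small stress-induced proteins that bind cell cycle and DNA repair factors. It measured 5.81, 5.83 and 6.10 in Lycorine kdrl+ cells, against 5.82, 5.78 and 7.31 in DMSO kdrl+ cells. It ranged from 5.60 to 6.27 in Lycorine Runx+ cells, against 5.78 to 7.51 in DMSO Runx+ cells, and from 5.09 to 5.92 in Lycorine negative cells, against 5.14 to 6.72 in DMSO negative cells. Its DMSO arrays spanned the widest range of any member, and the highest values were those of the arrays numbered 3 in the kdrl+ and Runx+ sorts. The differences were -0.39, -0.54 and -0.41 (SE 0.47 each) in kdrl+, Runx+ and negative cells, with all intervals across 0.

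sesn1 encodes sestrin 1, which in mammals restrains the growth regulator mTORC1 and supports antioxidant defence. It measured 8.33, 8.18 and 8.38 in Lycorine kdrl+ cells, against 7.41, 7.52 and 8.34 in DMSO kdrl+ cells. The DMSO array numbered 3 reached the Lycorine level and the other two did not. It measured 7.19, 7.22 and 7.11 in Lycorine Runx+ cells, against 7.15, 7.72 and 7.52 in DMSO Runx+ cells. In negative cells it measured 7.47, 6.95 and 7.86 under Lycorine, against 7.15, 7.20 and 7.32 in DMSO. The groups overlapped in all 3 sorts. The difference was 0.54 ± 0.26 (SE) in kdrl+ cells, with an adjusted p of 0.435 by limma, and -0.29 ± 0.26 and 0.20 ± 0.26 in Runx+ and negative cells.

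The targets that drive cell death were bbc3 and baxa. bbc3 encodes Puma, a BH3-only protein that is the main killer downstream of p53 in many cell types, the zebrafish embryo included. It measured 6.80, 6.59 and 6.73 in Lycorine kdrl+ cells, against 5.19, 6.03 and 7.21 in DMSO kdrl+ cells. It measured 5.88, 5.74 and 5.46 in Lycorine Runx+ cells, against 5.52, 5.95 and 6.79 in DMSO Runx+ cells. It measured 5.59, 5.46 and 5.56 in Lycorine negative cells, against 5.81, 5.99 and 6.35 in DMSO negative cells. The Lycorine arrays of each sort lay close together, whereas the DMSO kdrl+ arrays spanned about 2 log2 units, and only the negative sort had no overlap, with Lycorine lower. In that sort 11.7% of all genes were lower without overlap. The differences were 0.56, -0.39 and -0.51 (SE 0.38 each) in kdrl+, Runx+ and negative cells.

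baxa encodes Bax, which forms the pore in the mitochondrial membrane. It measured 6.47, 7.14 and 7.34 in Lycorine kdrl+ cells, against 7.23, 6.73 and 7.73 in DMSO kdrl+ cells. It ranged from 6.18 to 6.74 in Lycorine Runx+ cells, against 6.12 to 7.22 in DMSO Runx+ cells, and from 6.32 to 6.65 in Lycorine negative cells, against 6.35 to 6.92 in DMSO negative cells. The groups overlapped in each sort, and the differences were -0.24, -0.21 and -0.23 (SE 0.31 each) in kdrl+, Runx+ and negative cells.

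phlda3 encodes a small lipid-binding protein that, in mammals, competes with the kinase Akt for the membrane and so opposes survival signals. It measured 5.60, 5.77 and 5.60 in Lycorine kdrl+ cells, against 5.38, 5.42 and 5.47 in DMSO kdrl+ cells, and was the single member whose Lycorine kdrl+ arrays all lay above the DMSO kdrl+ arrays. Over all genes, 5.66% were higher without overlap in that sort. It measured 5.75, 5.73 and 5.66 in Lycorine Runx+ cells, against 6.08, 5.27 and 5.96 in DMSO Runx+ cells, and 6.22, 5.78 and 6.37 in Lycorine negative cells, against 7.02, 5.37 and 6.19 in DMSO negative cells. The differences were 0.23, -0.06 and -0.07 (SE 0.31 each) in kdrl+, Runx+ and negative cells.

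**Figure D2:**
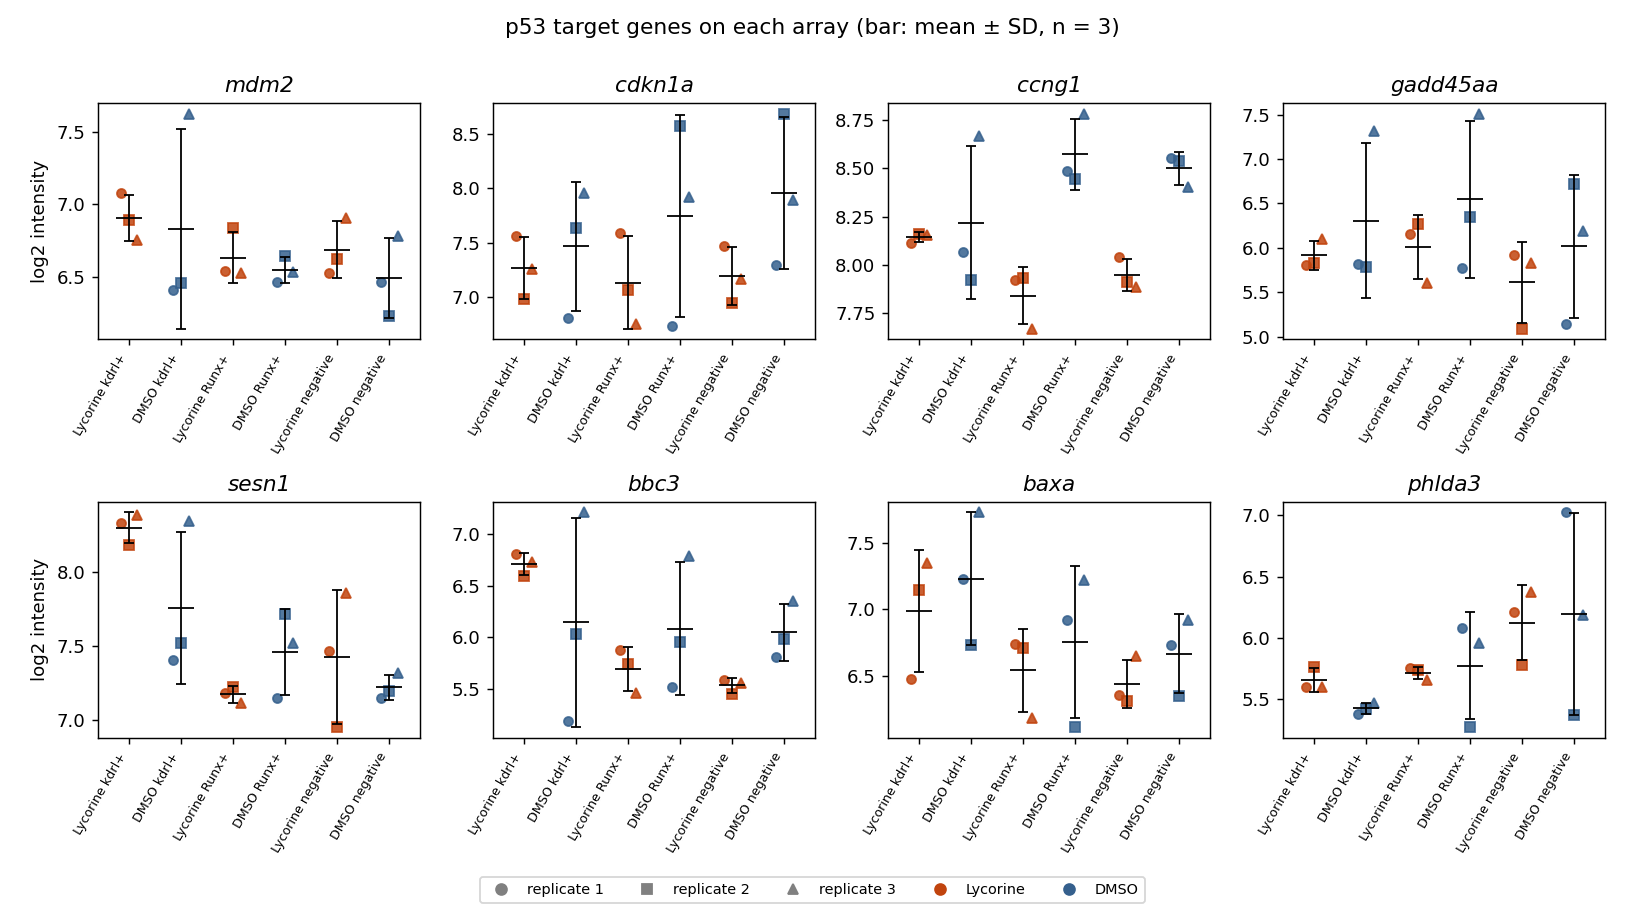
Log2 intensity (vertical axis) of each p53 target on every array, grouped by treatment and sort; symbols mark the replicate number, orange is Lycorine, blue is DMSO, and bars are the mean ± SD of 3 arrays. The ccng1 panel shows the Lycorine arrays of the Runx+ and negative sorts below 8.05 and their DMSO arrays above 8.40, and the vertical axes do not start at 0.

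Averaged over the sorts, so that 9 Lycorine arrays were set against 9 DMSO arrays with the sort held fixed, 1 of the 8 members passed the test. The fit counts these arrays as independent. Sorted fractions of the same embryo pool would not be, and no label says which arrays share a pool, so the precision may be overstated. ccng1 fell, at a mean of 7.98 under Lycorine and 8.43 in DMSO, a difference of -0.45 ± 0.11 (SE) or 0.73-fold, with an adjusted p of 0.0319 by limma and a 95% interval of -0.69 to -0.21. In this comparison 2.81% of all genes were lower and 2.29% were higher, 5.1% in all. cdkn1a averaged 7.20 under Lycorine and 7.72 in DMSO, a difference of -0.52 ± 0.24 with an adjusted p of 0.194, and gadd45aa averaged 5.84 under Lycorine and 6.29 in DMSO, a difference of -0.45 ± 0.27 with an adjusted p of 0.313. The other members differed by -0.23 for baxa, -0.11 for bbc3, 0.03 for phlda3, 0.12 for mdm2 and 0.15 for sesn1. The ccng1 call lies near the threshold. It was lost in 12 of 18 fits that left out 1 array (DMSO negative replicate 1 or 2, DMSO Runx+ replicate 3, or any of the 9 Lycorine arrays), with adjusted p of 0.0507 to 0.0691. It was also lost with the replicate number of each treatment as a random block, where the adjusted p was 0.0838. In that fit, which allows same-numbered arrays of a treatment to be alike, 177 of all genes passed in the average instead of 982. The difference itself stayed between -0.50 and -0.38 when 1 array was left out. Marker scores of other cell types also differed between Lycorine and DMSO in some sorts. The 6 muscle markers scored -1.34 to -1.01 in Lycorine kdrl+ against -0.78 to 0.91 in DMSO kdrl+ arrays, and -0.77 to -0.10 in Lycorine negative against 0.17 to 0.59 in DMSO negative arrays, while the Runx+ groups overlapped. The 7 erythroid markers scored -0.42 to -0.22 in Lycorine kdrl+ against 0.06 to 1.47 in DMSO kdrl+ arrays and overlapped in the other sorts. The 6 mesenchyme markers scored -1.07 to -0.81 in Lycorine kdrl+ against -0.73 to 0.165 in DMSO kdrl+ arrays and overlapped in the other sorts. Liver, pancreas and gut markers were lower without overlap in the kdrl+ and negative sorts. Neural markers went the other way in the Runx+ sort, at 0.48 to 0.78 under Lycorine against -0.30 to 0.45 in DMSO. The part of these cell types in the ccng1 difference was not tested.

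Whether Lycorine acted differently on these genes in different sorts was tested as the difference between 2 Lycorine effects. Of the 8 members, 0 passed in any of the 3 pairs of sorts, and 0% of all genes did. For ccng1 the kdrl+ effect exceeded the Runx+ effect by 0.65 ± 0.28 (SE), with an unadjusted p of 0.0311 and an adjusted p of 0.983 by limma. For sesn1 the same difference was 0.83 ± 0.36, with an unadjusted p of 0.0349 and the same adjusted p. For bbc3 it was 0.96 ± 0.53 against Runx+ cells and 1.08 ± 0.53 against negative cells, and the 95% interval against negative cells was -0.05 to 2.20. The effects in different sorts are thus not shown to differ. For ccng1, sesn1 and bbc3 the 95% intervals of kdrl+ against Runx+ cells are wide enough to hold differences of over 2-fold.

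The array labelled DMSO kdrl+ replicate 3 bears on every result in the kdrl+ sort. It was the highest of its 3 arrays for all 8 members, against 35.6% of all genes, and it was over 1 log2 unit above the next array for 3 members, against 3.42% of all genes. These 3 were mdm2, gadd45aa and bbc3. The median member stood 0.82 above the other two arrays of its group, against -0.02 for the median of all genes. On the same array the endothelial markers scored 2.97, against 2.00 and 2.04 on the other two, and the neural markers scored -2.33, against -0.86 and -1.44. Their part in the member values was not tested. Without this array, Lycorine against DMSO in kdrl+ cells gave 0.47 ± 0.21 (SE) for mdm2 with an adjusted p of 0.225 by limma. It gave 0.83 ± 0.24 for sesn1 and 1.1 ± 0.3 for bbc3, both with an adjusted p of 0.075, and 0 of 8 members passed while 424 genes did. Because this array was the highest of its group for every member, leaving it out necessarily raised each of these differences. All 8 were then above 0, with a median of 0.20. With DMSO kdrl+ replicate 1 left out instead, 3 of 8 were above 0 and the median was -0.14. Leaving out DMSO kdrl+ replicate 3 and DMSO Runx+ replicate 3 together brought bbc3 past the test, at 1.1 ± 0.3 with an adjusted p of 0.0321. In that fit 658 genes passed. The Runx+ array is not part of the kdrl+ comparison, so leaving it out changed the shared variance and not the difference. Its bbc3 value, 6.79, was the highest of its group, beside 5.52 and 5.95. Leaving out both arrays was chosen after the values were seen.

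**Figure D3:**
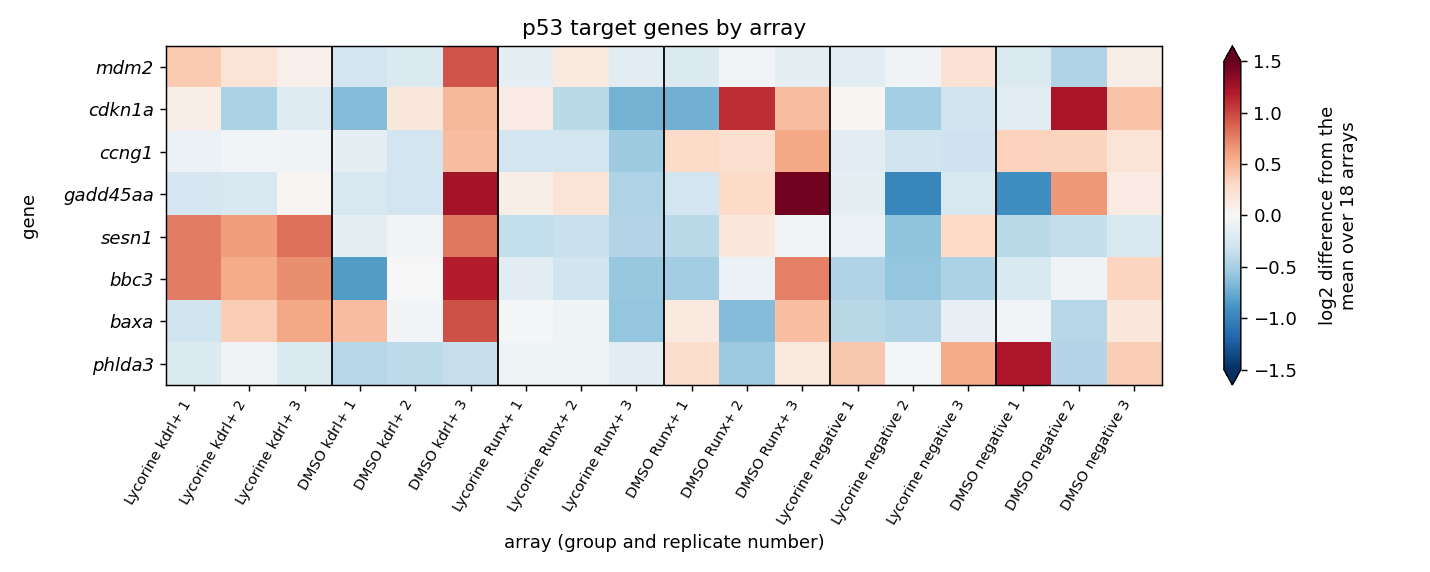
Log2 difference of each p53 target (rows) from its mean over the 18 arrays, for every array (columns), with vertical lines between groups; red is above and blue below the mean. The column of DMSO kdrl+ replicate 3 is red for 7 of 8 genes, phlda3 being the exception, and the sesn1 and bbc3 rows are red on all 3 Lycorine kdrl+ arrays.

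As a description over 18 arrays that share groups and normalisation, Pearson's r was 0.74 between sesn1 and bbc3, 0.71 between mdm2 and sesn1 and 0.64 between mdm2 and bbc3. It was 0.63 between cdkn1a and gadd45aa, 0.60 between gadd45aa and ccng1 and 0.56 between cdkn1a and ccng1. bbc3 also followed gadd45aa at 0.61, ccng1 at 0.51 and cdkn1a at 0.44, so the members did not fall into separate sets. Between the feedback gene and the arrest gene, mdm2 and cdkn1a, r was 0.03. phlda3 had its highest r with ccng1, at 0.13, and its lowest with gadd45aa, at -0.36. The SD within groups, pooled over the 3 sorts, was lower under Lycorine than in DMSO for all 8 members, as for 84.0% of all genes. This pooled SD was 0.14 under Lycorine and 0.71 in DMSO for bbc3, and 0.27 under Lycorine and 0.34 in DMSO for sesn1. Single sorts did not always follow. The SD under Lycorine and in DMSO was 0.45 and 0.09 for sesn1 in negative cells. It was 0.18 and 0.09 for mdm2 in Runx+ cells, and 0.10 and 0.04 for phlda3 in kdrl+ cells. The median ratio of the pooled Lycorine SD over the pooled DMSO SD was 0.41 for the members and 0.61 for all genes.

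The levels were also compared between sorts within a treatment. In DMSO embryos 0 of 8 members passed the test between kdrl+ and negative cells, where 10.5% of all genes did, 0 of 8 between kdrl+ and Runx+ cells, where 8.43% did, and 0 of 8 between Runx+ and negative cells, where 0.0052% did. The DMSO kdrl+ arrays of sesn1 all lay above the DMSO negative arrays, as did those of 8.83% of all genes, with a difference of 0.54 ± 0.26 (SE) with an adjusted p of 0.217 by limma. phlda3 was at 5.38, 5.42 and 5.47 in DMSO kdrl+ cells, against 7.02, 5.37 and 6.19 in DMSO negative cells, a difference of -0.77 ± 0.31 with an adjusted p of 0.135. Without DMSO negative replicate 2 this difference was -1.18 and passed, at an adjusted p of 0.00977. The highest phlda3 value, DMSO negative replicate 1, came from the array with the highest erythroid marker score, 1.88, and the part of those cells was not tested.

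Under Lycorine, where the arrays of a group lay closer together over all genes, sesn1 was higher in kdrl+ cells than in either other sort. In the same cells bbc3 was higher than in negative cells. These comparisons were added after the member values were seen. The fit shares 1 variance per gene over all 6 groups, so the SEs here also hold the wider DMSO spread. For bbc3 the SD was 0.11 in Lycorine kdrl+ and 0.07 in Lycorine negative arrays. For sesn1 the SD was 0.10 in Lycorine kdrl+ but 0.45 in Lycorine negative arrays, wider than the 0.09 in DMSO negative arrays. Between kdrl+ and negative cells, 2 of 8 members passed, both higher, where 6.56% of all genes were higher and 12.9% passed in either direction. sesn1 was higher by 0.87 ± 0.26 (SE), or 1.83-fold, with an adjusted p of 0.0311 by limma, and bbc3 by 1.17 ± 0.38, or 2.26-fold, with an adjusted p of 0.0488. For each gene the 3 Lycorine kdrl+ arrays lay above the 3 Lycorine negative arrays, as did those of 17.7% of all genes. The same held for ccng1, at 0.20 ± 0.20, while phlda3 was lower without overlap, at -0.47 ± 0.31. The sesn1 and bbc3 calls are near the threshold: leaving out 1 of the 6 arrays ended the bbc3 call each time, with adjusted p of 0.110 to 0.132, and the sesn1 call in 5 of 6 fits, with adjusted p of 0.0771 to 0.173.

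Between kdrl+ and Runx+ cells under Lycorine, 1 of 8 members passed, where 7.12% of all genes were higher and 12.8% passed in either direction. sesn1 was higher by 1.12 ± 0.26 (SE), or 2.18-fold, with an adjusted p of 0.00819 by limma, and it passed in 6 of 6 fits that left out 1 array. bbc3 was higher by 1.02 ± 0.38, with an adjusted p of 0.0871, and its kdrl+ arrays, like those of sesn1 and ccng1, all lay above the Runx+ arrays, as did those of 18.1% of all genes. It passed with the replicate number of each treatment as a random block, at an adjusted p of 0.0420. Between Runx+ and negative cells under Lycorine, 0 of 8 members passed, where 0.0104% of all genes did. Whether a sort difference changed with treatment is the same contrast as the difference between Lycorine effects above, which 0 members passed. No other member passed in these comparisons under Lycorine; the smallest adjusted p among them was 0.333 for baxa between kdrl+ and negative cells, at 0.55 ± 0.31, and 0.368 for ccng1 between kdrl+ and Runx+ cells, at 0.30 ± 0.20. The endothelial markers that separate the kdrl+ sort scored between 2.70 and 2.92 on these kdrl+ arrays and between -1.86 and -0.82 on the other Lycorine arrays, and what cell makeup adds to the sesn1 and bbc3 levels was not tested.

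In order of level, sesn1 stood highest in Lycorine kdrl+ cells (8.30 ± 0.10, SD, n = 3), followed by DMSO kdrl+ (7.76 ± 0.51), DMSO Runx+ (7.46 ± 0.29), Lycorine negative (7.43 ± 0.45), DMSO negative (7.22 ± 0.09) and Lycorine Runx+ cells (7.17 ± 0.06). The arrays of each pair of neighbours in this order overlapped. bbc3 stood highest in Lycorine kdrl+ cells (6.71 ± 0.11) and lowest in Lycorine negative cells (5.54 ± 0.07), with DMSO kdrl+ (6.14 ± 1.01), DMSO Runx+ (6.09 ± 0.64), DMSO negative (6.05 ± 0.28) and Lycorine Runx+ cells (5.69 ± 0.21) between them. The 4 groups in the middle overlapped each other. ccng1 stood highest in DMSO Runx+ (8.57 ± 0.18) and DMSO negative cells (8.50 ± 0.08), and lowest in Lycorine negative (7.95 ± 0.08) and Lycorine Runx+ cells (7.84 ± 0.15), with Lycorine kdrl+ (8.14 ± 0.03) and DMSO kdrl+ cells (8.22 ± 0.40) between. The highest pair overlapped each other, as did the lowest pair.

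The rest of the pathway was read from lists drawn up by name. They cover genes counted as p53 regulators, other p53 targets, cell cycle genes repressed through p21, and survival genes of the BCL2 family with caspases. Whether p53 acts on each gene listed was not tested. In single sorts, 0 of 96 measured genes on these lists passed the Lycorine test. Among 16 of 19 regulators that were measured, the median Lycorine difference was 0.24 in kdrl+, 0.22 in Runx+ and 0.14 in negative cells, and without DMSO kdrl+ replicate 2 the kdrl+ median was -0.04. The 2 regulators with the smallest p were chek1, a kinase of the DNA damage checkpoint, at 0.56 ± 0.19 (SE) in kdrl+ cells with an adjusted p of 0.328 by limma, and rchy1, a ubiquitin ligase for p53, at 0.54 ± 0.28 in negative cells. Averaged over the sorts, chek1 rose by 0.45 ± 0.11 with an adjusted p of 0.0282, and it was the only regulator of 16 to pass. In that average 2.29% of all genes were higher and 5.1% passed in either direction.

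The 21 other targets of arrest and growth control had medians of 0.04 in kdrl+, -0.35 in Runx+ and -0.12 in negative cells, and the kdrl+ median ranged from -0.09 to 0.19 when 1 array was left out. ddit4, an inhibitor of mTORC1 that also answers to low oxygen and glucocorticoids, measured 7.32, 7.18 and 7.73 in Lycorine kdrl+ cells, against 8.72, 8.07 and 8.45 in DMSO kdrl+ cells, a difference of -1.0 ± 0.3 (SE) with an adjusted p of 0.241 by limma. sesn3, a sestrin like sesn1, differed by -0.78 ± 0.24 in Runx+ cells with an adjusted p of 0.189. Averaged over the sorts ddit4 fell, by 0.76 on the log2 scale with an adjusted p of 0.0204, and it was the only gene of the 21 to pass. In that average 2.81% of all genes were lower and 5.1% passed in either direction. The 16 apoptosis targets had medians of -0.10, -0.38 and -0.24 in kdrl+, Runx+ and negative cells, and their smallest p were those of boka, a relative of Bax, at -0.50 ± 0.20 and the death receptor gene fas at -0.58 ± 0.27, both in negative cells; 0 of 16 passed in the average, where the lowest adjusted p was 0.104.

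The 16 targets of repair and metabolism had medians of -0.11, -0.15 and -0.10 in kdrl+, Runx+ and negative cells. The gene with the smallest p was isg15, a ubiquitin-like modifier better known as an interferon-induced gene. It differed by -1.16 ± 0.37 (SE) in Runx+ cells with an adjusted p of 0.200 by limma. Next was tp53i13, at -0.92 ± 0.29 in Runx+ cells with an adjusted p of 0.201 by limma. In the average isg15 fell, by 0.79 on the log2 scale with an adjusted p of 0.0401, the only one of 16, and the call held in 7 of 18 fits that left out 1 array. Of all genes, 2.81% were lower in the average and 5.1% passed in either direction. The 9 survival genes and caspases had medians of -0.01, -0.42 and -0.24, with xiap, a caspase inhibitor, at -0.58 ± 0.22 and the survival gene mcl1a at -0.44 ± 0.20 in Runx+ cells, and 0 of 9 passed in the average.

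Of the cell cycle genes listed as shut down by p53 through p21, 18 were measured, with median Lycorine differences of 0.28 in kdrl+, 0.43 in Runx+ and 0.02 in negative cells. In Runx+ cells 17 of 18 estimates were above 0, and the median stayed between 0.29 and 0.61 when 1 array was left out. The median over all genes there was -0.04, and the share of all genes above 0 was not counted. The list scored 0.33, -0.01 and -0.16 in Lycorine Runx+ arrays, against -0.25, -0.54 and -0.365 in DMSO Runx+ arrays. DMSO Runx+ replicates 2 and 3 had liver, pancreas and gut scores of 2.34 and 1.39, and leaving out 1 array never removed both. The part of those cells in the Runx+ median was not tested. The kdrl+ median rested on DMSO kdrl+ replicate 2: the list scored 0.33, 0.25 and 0.30 in Lycorine kdrl+ arrays, against 0.21, -0.50 and 0.25 in DMSO kdrl+ arrays, and without that array, the one with the liver, pancreas and gut score of 2.57, the median was -0.06. The negative median was -0.06 without DMSO negative replicate 2 and -0.04 without Lycorine negative replicate 1. CENPF, a kinetochore protein of dividing cells, measured 7.92, 7.35 and 7.25 in Lycorine kdrl+ cells, against 5.11, 5.96 and 6.47 in DMSO kdrl+ cells, a difference of 1.66 ± 0.35 (SE) with an adjusted p of 0.113 by limma. All Lycorine kdrl+ arrays lay above the DMSO kdrl+ arrays, as did those of 5.66% of all genes. top2a, the topoisomerase of replicating and dividing cells, differed by 0.96 ± 0.26 in kdrl+ cells with an adjusted p of 0.218. Averaged over the sorts, 2 of 18 rose: top2a by 0.74 ± 0.15 with an adjusted p of 0.0143, and the spindle checkpoint gene bub1bb by 0.90 ± 0.22 with an adjusted p of 0.0273. In that average 2.29% of all genes were higher and 5.1% passed in either direction. Without the 3 DMSO arrays numbered 2, top2a and bub1bb did not pass, at adjusted p of 0.0582 and 0.0915. The chek1 call in the average was lost in that fit too. The calls of top2a and ddit4 held in 18 of 18 fits that left out 1 array, and those of chek1 and bub1bb in 12 of 18. Both of these were lost without DMSO Runx+ replicate 2, replicate 1 of any Lycorine group or Lycorine negative replicate 3, chek1 also without Lycorine kdrl+ replicate 3 and bub1bb also without DMSO negative replicate 2. With the replicate number of each treatment as a random block, top2a alone of chek1, ddit4, isg15, bub1bb and top2a passed.

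**Figure D4:**
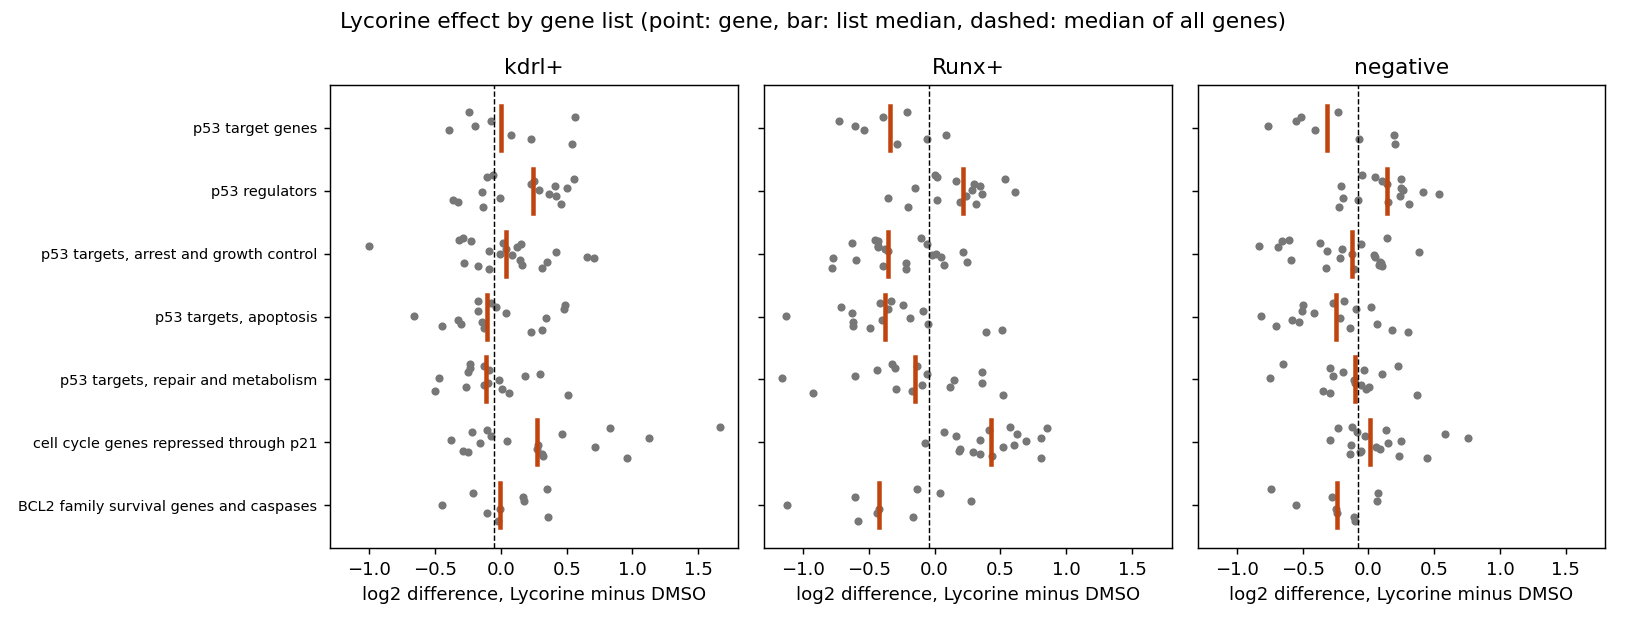
Lycorine minus DMSO difference in log2 intensity (horizontal axis) for each gene (points) of the p53 target set and 6 further pathway lists (rows), in kdrl+, Runx+ and negative cells; orange bars are list medians and dashed lines the median of all genes. In Runx+ cells the cell cycle list has its median at 0.43 and the p53 targets at -0.34, and no point passes the test.

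In the sort comparisons under Lycorine, named after their values were seen, several genes of the other target lists were also higher in kdrl+ cells. Of the arrest genes among them, plk2a, plk2b and sesn3 were higher in DMSO too. The lists were drawn up by name, and whether p53 drives these genes here was not tested. Of the 21 arrest and growth genes, 4 were higher and 1 was lower in kdrl+ than in negative cells, and 4 were higher and 1 lower than in Runx+ cells, where 6.56% and 7.12% of all genes were higher and 12.9% and 12.8% passed in either direction. In DMSO, 3 of the 21 were higher and 1 was lower in kdrl+ cells than in either other sort, where 10.5% of all genes passed against negative and 8.43% against Runx+ cells. plk2b, a polo-like kinase gene, measured 10.28, 10.48 and 10.63 in Lycorine kdrl+ cells, against 6.85, 6.80 and 7.09 in Lycorine negative cells and 7.26, 7.45 and 6.77 in Lycorine Runx+ cells. In DMSO it differed by 2.63 ± 0.29 (SE) between kdrl+ and negative cells with an adjusted p of 1.31e-05 by limma. sesn3 was higher in kdrl+ cells by 1.62 ± 0.24 against negative and 1.92 ± 0.24 against Runx+ cells under Lycorine, and in DMSO by 0.98 ± 0.24 and 0.83 ± 0.24. plk2a was higher by 2.29 and 2.46 under Lycorine and by 1.69 and 1.86 in DMSO, against negative and Runx+ cells in that order, and gadd45gb.1 was the gene that was lower under both treatments. gadd45ab passed under Lycorine alone, though the change of its sort difference with treatment did not pass a test. Under Lycorine the gadd45ab calls held in 3 of 6 fits that left out 1 array against negative and 2 of 6 against Runx+ cells. Those of gadd45gb.1 held in 2 of 6 each, while plk2a, plk2b and sesn3 held in 6 of 6. In DMSO the plk2a and plk2b calls held in 6 of 6 such fits. The sesn3 calls held there in 5 of 6 against negative and 1 of 6 against Runx+ cells, and those of gadd45gb.1 in 4 of 6 and 1 of 6. Of the 16 repair and metabolism targets, igfbp3 was higher in Lycorine kdrl+ cells by 0.85 and 1.08, against negative and Runx+ cells. isg15 was higher by 1.51 and 1.27, and in DMSO by 1.24 against negative cells. It was dim in the lower groups, with means of 4.12 in Lycorine negative, 4.36 in Lycorine Runx+ and 4.86 in DMSO negative cells. Among regulators, atm was higher by 0.89 and 0.95 under Lycorine and by 0.90 and 1.02 in DMSO. tp63 differed by -1.05 and -1.28 under Lycorine. Of these calls, only those of igfbp3 held in each fit that left out 1 array. Among the 16 apoptosis targets under Lycorine, bcl2l11, which encodes the BH3-only protein Bim, was higher by 1.92 ± 0.41 and 1.56 ± 0.41 against negative and Runx+ cells. In the same order bmf1, another BH3-only gene, was higher by 1.55 ± 0.39 and 1.43 ± 0.39. bida passed against Runx+ cells, by 1.36 ± 0.42, a call lost in each fit that left out 1 array. The bcl2l11 call held in 6 of 6 such fits against negative and 3 of 6 against Runx+ cells, and the bmf1 call in 3 of 6 and 2 of 6. In DMSO, 0 of the 16 apoptosis targets passed between kdrl+ cells and either other sort, with lowest adjusted p of 0.126 against negative and 0.216 against Runx+ cells. The median difference of the 16 was 0.31 and 0.13 in DMSO and 0.42 and 0.36 under Lycorine, in that order. The largest DMSO differences were 1.05 and 1.23. The change of a sort difference with treatment passed for 0% of all genes, so the apoptosis calls are not shown to be particular to Lycorine.

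The genes whose levels followed mdm2 most closely across the 18 arrays, by Pearson's r, were kif13ba at 0.86, dbnlb and serac1 at 0.83 and ncl and cep63 at 0.82. Those closest to cdkn1a were ugt5b3 at 0.89, ston2 at 0.88, plekhs1.1 at 0.87, hprt1 at 0.86 and abat at 0.84. The members were not ranked with them; the member closest to mdm2 was sesn1 at 0.71, and the member closest to cdkn1a was gadd45aa at 0.63. These values describe the arrays and share groups and normalisation.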

How the data were processed

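Total RNA from sorted cells of embryo pools was amplified with a NuGEN kit and hybridised to single-channel arrays, per the labels' protocols. The deposited values are log2 intensities; the tools listed in the submitters' processing notes are oligo, RMA and limma, without versions. RMA as usually run corrects background, brings the arrays to a common distribution and summarises probes, so a shift shared by all genes is hidden, and the number of arrays limits the precision.

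Of 65528 rows, 20806 had 1 gene symbol, 855 had several and 43867 had none; names were updated through Entrez identifiers where possible, and 19247 genes resulted. For 1372 genes with several rows the row with the highest mean was kept. Group means of all 18 arrays were fitted with limma 3.58.1 in R 4.3.3 (2-sided, moderated by eBayes, 12 residual degrees of freedom), with p-values adjusted by Benjamini-Hochberg within each of 13 comparisons, 3 of which were added after the member values were seen. The median SE over all genes was 0.27 for Lycorine in a sort. Each gene had 1 variance shared by the 6 groups, although the spread was wider in the DMSO groups. SEs and p-values within 1 treatment therefore also rest on the spread of the other treatment. With only the arrays compared, kdrl+ against negative gave 5029 genes instead of 2492 under Lycorine and 730 instead of 2023 in DMSO. The fit was tested on simulated data, drawn as independent arrays with the same spread in every group. That test does not cover the wider DMSO spread or likeness between same-numbered arrays. The labels call the 3 arrays of a group biological replicates of embryo pools.

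Replicate numbers are shared by the groups, but no label says that a number marks 1 pool. Deviations from group means of same-numbered arrays correlated above 0.1 in all 3 pairs between Lycorine negative and DMSO negative cells (0.29, 0.31 and 0.15), Lycorine negative and DMSO kdrl+ cells (0.11, 0.32 and 0.15), DMSO kdrl+ and DMSO negative cells (0.26, 0.39 and 0.12), DMSO kdrl+ and DMSO Runx+ cells (0.42, 0.33 and 0.36), and Lycorine kdrl+ and Lycorine negative cells (0.24, 0.22 and 0.43), but not between Lycorine and DMSO in kdrl+ or Runx+ cells. Lycorine negative and Lycorine Runx+ cells gave 0.33, -0.15 and -0.36, and Lycorine Runx+ and Lycorine kdrl+ cells gave 0.02, -0.01 and -0.23. The 2 most similar arrays correlated at 0.984, and no array was counted as a repeat of another.

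Genes outside the 8 were named by rule: in each list those past an adjusted p of 0.05 in a Lycorine comparison of a sort, or otherwise the 2 with the smallest p, plus the 5 genes most like mdm2 and cdkn1a. Some items are not reported here. Genes named for the averaged and sort comparisons were chosen after their values were seen. The members and lists were chosen with earlier results of these data known. No coordinates or sequences are given because no genome of the array's build was used here. Alternatives covered scaling, the variance prior, array weights, blocks, dim genes, row choice and left-out arrays.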

Additional observations from a re-analysis of the deposited data

How the results depend on the processing

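The p53 targets kept their side of the threshold in 1881 of 1915 pairs of a member value and an alternative. Of the rest, 25 lost a call and 9 gained one, and 140 pairs changed sign with both values below the threshold. Most pairs hold a value that did not pass in the main fit, so the 1881 say little about the calls. Only ccng1 in the average, sesn1 in kdrl+ against negative and Runx+ cells under Lycorine, and bbc3 in kdrl+ against negative cells under Lycorine could lose a call. Without 1 array at a time, genes past the threshold for Lycorine against DMSO ranged from 0 to 424 in kdrl+, 0 to 1107 in Runx+ and 0 to 1 in negative cells, with 0 members in each fit, and from 353 to 2395 in the average, with 0 to 2 members and ccng1 at -0.50 to -0.38; the fit with 2 members, without DMSO Runx+ replicate 1, also called cdkn1a, at -0.69 with an adjusted p of 0.0411 by limma. For differences between Lycorine effects they ranged from 0 to 1 for kdrl+ minus negative, 0 to 5 for kdrl+ minus Runx+ and 0 to 0 for Runx+ minus negative cells, with 0 members. For sorts in DMSO they ranged from 1091 to 2213 (kdrl+ against negative, 0 to 1 members), 708 to 1916 (kdrl+ against Runx+) and 0 to 568 (Runx+ against negative), and under Lycorine from 1145 to 1876 (0 to 1 members), 1012 to 1862 (1 member in each) and 0 to 1.

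Array weights gave 952 genes in Runx+ cells, with 1 member (ccng1, -0.64), 9 in negative cells, 2536 in the average, 1310, 1065 and 343 for kdrl+ against negative, kdrl+ against Runx+ and Runx+ against negative cells in DMSO, and 5880, 6194 and 257 under Lycorine, where bbc3 became the 2nd member between kdrl+ and Runx+ cells. With these weights 3 members passed between kdrl+ and negative cells under Lycorine, against 2 in the main fit. Fitting only the arrays compared gave 1 gene in kdrl+ cells, 730, 172 and 0 for those sort comparisons in DMSO and 5029, 4895 and 48 under Lycorine, again with 2 members between kdrl+ and Runx+. The replicate number as a block gave 1 gene in Runx+ cells and 1 for Runx+ against negative under Lycorine, and changed no member call. The replicate block by treatment, whose correlation was 0.14, gave 2 genes in Runx+ cells, 46 for Runx+ against negative in DMSO, 2 members between kdrl+ and Runx+ under Lycorine, and in the average 177 genes and 0 members, ccng1 being -0.45 with an adjusted p of 0.0838. In Runx+ cells median centring gave 3 genes, cyclic loess 20, leaving out dim genes 2 and the mean of all rows 2; cyclic loess gave 11 for Runx+ against negative in DMSO, and leaving out dim genes gave 6 in kdrl+ cells and 1617 for kdrl+ against negative under Lycorine. Without the DMSO arrays numbered 2 there was 1 gene in negative cells, 514 in the average, 65 for Runx+ against negative in DMSO, 1 member (phlda3) for kdrl+ against negative in DMSO and 1 member (sesn1) under Lycorine. Without the arrays numbered 3 of DMSO kdrl+ and DMSO Runx+ there were 658 genes and 1 member (bbc3) in kdrl+ cells, 10 genes in Runx+ cells and 1620 in the average. The causes were not tested. Median centring moved the share of higher calls to 56.9% in the average, against 44.9%, and to 58.0% and 58.9%, against 42.8% and 48.6%, for kdrl+ against negative and against Runx+ in DMSO; cyclic loess gave 55.5% in the average.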
